A study of Mus musculus with 16 samples.

Results

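Levels of 10 immediate early genes were described in the cortex and cerebellum of 8 mice. The genes were *Fos*, *Fosb*, *Fosl2*, *Junb*, *Egr1*, *Egr2*, *Egr4*, *Npas4*, *Nr4a1* and *Arc*, which are 10 of the 37583 genes listed in the count files, and each was found by its name. They were selected on their levels per mouse, under a rule that these vary together in both regions, so that shared variation was the criterion of choice and not a result, although *Egr1* and *Arc* did not meet it in these data. RNA had been sequenced from frontal cortex and cerebellum of 4 wild-type and 4 A391T mice, with 1 library per region and mouse and therefore 16 libraries in 4 groups of 4. All mice had the C57BL/6J background, and the replicates of a group were separate animals. A391T mice carried the A391T allele of *Slc39a8*, a gene for a metal ion transporter, which the labels also number A393T. The wild-type animals were adult males killed with CO2 and not perfused, whereas the age and sex of the A391T animals and the making of their line were not given in the sources used here. No group had a labelled treatment or stimulus. Mice are numbered here 1 to 4 within a genotype, in ascending order of the number in their titles, so that the cortex libraries are CTX447, CTX448, CTX479 and CTX480 for wild type and CTX445, CTX446, CTX461 and CTX462 for A391T.

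Immediate early genes are transcribed soon after a cell is stimulated, from factors that are already present in the cell. In neurons, synaptic input and calcium entry activate kinases that act on CREB and on serum response factor at the promoters of these genes, and the RNA that follows is short-lived. Most of them encode transcription factors that act on a later set of genes, and in cortex and hippocampus their RNA is a common marker of neurons that were recently active.

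The members fall into 5 kinds by the protein they encode. *Fos*, *Fosb*, *Fosl2* and *Junb* encode subunits of the dimeric factor AP-1. *Egr1*, *Egr2* and *Egr4* encode zinc finger factors that bind GC-rich sites. *Npas4* encodes a basic helix-loop-helix factor that responds selectively to calcium entry in neurons. *Nr4a1* encodes an orphan nuclear receptor. *Arc* encodes a protein of dendrites and synapses that takes part in the removal of AMPA receptors from the membrane.

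Start regions are shown for the members whose window held the motif that most members had in common, the half-site TGACG of the cAMP response element, to which CREB binds. Windows from 250 bases before to 50 bases after the annotated start were matched by symbol in RefSeq (GRCm38.p6) for 8 of the 10 genes, which are all except *Arc* and *Egr1*. In the sequences below, read 5′ to 3′ on the strand of the gene up to the base before the start, capitals mark TGACG or, for a match on the other strand, CGTCA, and in *Egr2* also the CArG box that serum response factor binds. They lie at chr12:85473750-85473889 on the plus strand for *Fos*, chr7:19310046-19310125 on the minus strand for *Fosb*, chr8:84978749-84978868 on the minus strand for *Junb*, chr6:85513590-85513779 on the minus strand for *Egr4*, chr19:4989972-4990161 on the minus strand for *Npas4* and chr15:101266766-101266845 on the plus strand for *Nr4a1*. For *Egr2*, 26 bases of 1 of its 5 annotated windows are given, from 75 to 50 bases before the start at chr10:67537795-67537820 on the plus strand.
Fos: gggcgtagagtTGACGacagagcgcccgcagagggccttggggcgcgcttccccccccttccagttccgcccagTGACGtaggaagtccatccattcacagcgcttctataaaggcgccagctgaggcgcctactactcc
Fosb: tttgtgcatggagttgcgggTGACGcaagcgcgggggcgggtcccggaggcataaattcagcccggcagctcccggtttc
Junb: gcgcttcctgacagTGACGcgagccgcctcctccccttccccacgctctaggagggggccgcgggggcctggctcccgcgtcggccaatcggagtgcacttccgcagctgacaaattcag
Egr2: gtCCATATATGGgcagcgaCGTCAcg
Egr4: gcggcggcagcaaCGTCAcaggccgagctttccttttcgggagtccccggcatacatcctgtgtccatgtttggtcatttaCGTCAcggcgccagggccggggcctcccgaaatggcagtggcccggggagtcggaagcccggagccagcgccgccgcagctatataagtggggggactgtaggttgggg
Npas4: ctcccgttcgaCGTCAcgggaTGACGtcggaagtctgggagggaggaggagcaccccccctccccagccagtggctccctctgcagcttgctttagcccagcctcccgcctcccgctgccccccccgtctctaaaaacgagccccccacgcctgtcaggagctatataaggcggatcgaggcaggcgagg
Nr4a1: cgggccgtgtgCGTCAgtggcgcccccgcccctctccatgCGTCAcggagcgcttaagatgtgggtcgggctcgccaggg

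The half-site TGACG, on either strand, was present in the window of 7 of the 8 genes, all but *Fosl2*, against 23.0% of the 27025 genes with a window and 20.8% of all 32851 windows. In *Fos* it began 129 and 66 bases before the start, and in *Npas4* its matches on opposite strands began 179 and 169 bases before the start. A CArG box was found in 1 of the 8 genes, *Egr2*, against 1.81% of genes. The full palindrome TGACGTCA, which contains the half-site, was in the window of 0 of the 8 genes and of 2.03% of all genes. The AP-1 motif TGANTCA was likewise in 0 of the 8 and in 8.97% of genes. GCGNGGGCG, the motif of the Egr factors, was in 3 of the 8 (*Fosb*, *Fosl2* and *Nr4a1*) against 6.27% of genes, and TATAAA was in 2 (*Fos* and *Junb*) against 15.7%. A match is a description of letters, and a missing match says only that those letters are not in this window.

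**Figure D1:**
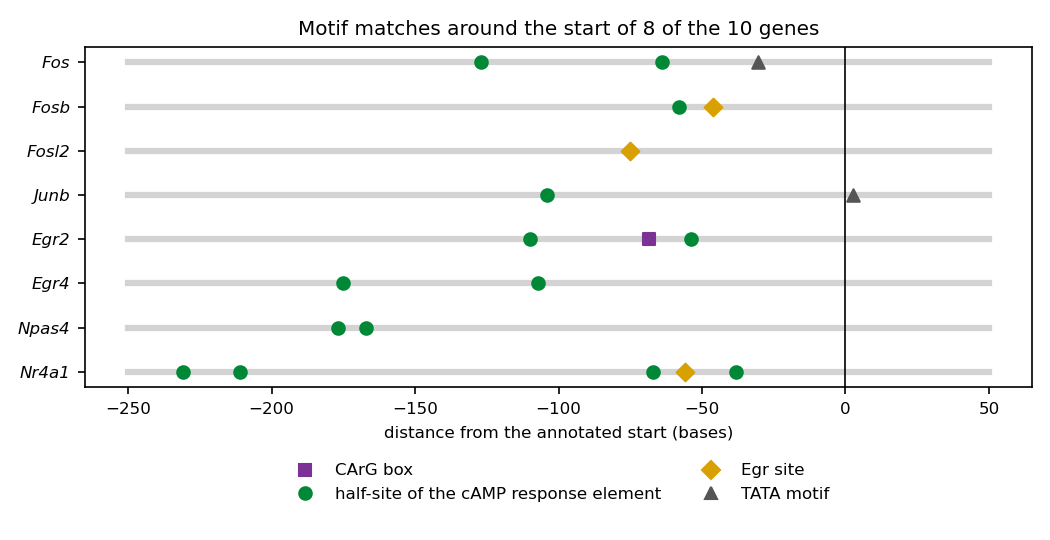
Position of each motif match, in bases from the annotated start (vertical line at 0), in the 300-base RefSeq window (grey bar) of 8 genes, with symbols for the motif and matches of either strand drawn alike. Green circles, the half-site of the cAMP response element, are in 7 of the 8 windows, and for *Egr2* the window whose CArG box begins 73 bases before the start is drawn.

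The genes are compact. In the NCBIM37 (mm9) annotation their spans run from 1807 bases, for *Junb* on chromosome 8 (87500811 to 87502617, minus strand, 1 exon), to 21360 bases, for *Fosl2* on chromosome 5 (32438845 to 32460204, plus strand), with a median of 4698 bases against 21871 bases over the tested genes. *Fos* lies on chromosome 12 from 86814840 to 86818223 (plus strand), *Npas4* on chromosome 19 from 4984355 to 4989971 (minus strand), and *Arc* on chromosome 15 from 74499513 to 74503000 (minus strand). The exons of 9 members overlapped no other annotated gene, and 0.258% of the exon bases of *Egr1* were shared with *Gm17507* on the opposite strand, where counts made without regard to strand cannot be assigned.

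Libraries held from 20813432 to 30497206 counts on genes. All 6 cortical marker genes were lower and all 7 entries of the cerebellar markers higher in cerebellum in both genotypes (called by edgeR's quasi-likelihood test as below), so the region labels held. Cerebellum of A391T mouse 1 stood apart, with 338 genes more than 2-fold from the other 3 libraries of its group, whereas the other 15 libraries had from 3 to 90 such genes. Among cortex libraries, that of wild-type mouse 4 had the most such genes, 84 against 3 to 34 in the rest. It also had the fewest counts on genes of all libraries and the highest share of reads not uniquely aligned, 12.1%. The authors' RPKM table gives other names than the count files to the libraries of 4 of the 8 mice, with wild-type mouse 1 and A391T mouse 3 exchanged, and wild-type mouse 2 and A391T mouse 4 exchanged, in both regions. Which set of names is right could not be read from the count files and the RPKM table. The expression levels of glycosylation genes that the paper lists were not compared with them here. The exchange leaves the 2 regions of a mouse together and alters its genotype, so the comparisons of the members between genotypes below are given under both. Group levels, ranges and regional fold changes use the names of the count files unless stated. They too depend on the names, and 8 of the 20 wild-type and 8 of the 20 A391T mean levels differed by more than 1.5 times under those of the RPKM table. In wild-type cortex *Arc* was then 433 rather than 279 TPM, *Fos* 97.9 rather than 63.8 and *Egr2* 25.7 rather than 15.8 TPM. In wild-type cerebellum *Fos* was 103 rather than 50.6 TPM, *Nr4a1* 82.6 rather than 50.6, *Npas4* 14.2 rather than 8.62, *Fosb* 2.86 rather than 1.66 and *Egr2* 0.265 rather than 0.147 TPM.

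Levels are given per length as TPM, the share of transcripts scaled to a fixed total, computed from the counts and the gene length of the deposited table. In wild-type cortex *Arc* had the highest mean level at 279 ± 67.8 TPM (SD, n = 4), followed by *Egr1* at 223 ± 25.9, *Junb* at 199 ± 33.5 and *Nr4a1* at 168 ± 34.8 TPM, and neighbours in this order overlapped between mice. The 4 *Nr4a1* values all lay above those of *Egr4* (111 ± 5.95 TPM), and those of *Egr4* above those of *Fos* (63.8 ± 25.2 TPM). *Npas4* (50.1 ± 19.3 TPM), *Fosl2* (24.9 ± 2.57 TPM), *Fosb* (22.1 ± 2.52 TPM) and *Egr2* (15.8 ± 5.40 TPM) followed, each overlapping the next. The length listed for *Egr1* in the deposited table, 5024 bases, exceeds both the 3100 exon bases and the span of 3778 bases in the annotation. If its counts come from the annotated exons alone, which was not tested, its TPM is low relative to the other genes by the ratio of 5024 to 3100. With the annotated length *Egr1* had 362 ± 42.0 TPM in wild-type cortex and the highest mean, above *Arc*, although the 4 values of both genes still overlapped.

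In wild-type cerebellum *Fos* had 50.6 ± 30.2 TPM (SD, n = 4). *Nr4a1* (50.6 ± 12.8 TPM), *Egr1* (42.3 ± 11.7 TPM), *Arc* (42.0 ± 6.61 TPM) and *Junb* (36.2 ± 8.39 TPM) overlapped with *Fos* and with each other. With its annotated length *Egr1* had 68.6 ± 19.0 TPM there, the highest mean of the members. *Egr4*, which overlapped *Junb*, had 23.5 ± 5.86 TPM, *Npas4* 8.62 ± 2.92, *Fosl2* 5.62 ± 0.733, *Fosb* 1.66 ± 0.713 and *Egr2* 0.147 ± 0.131 TPM. The 4 values of *Egr4* lay above those of *Npas4*, those of *Npas4* and *Fosl2* overlapped, and the values of *Fosl2*, *Fosb* and *Egr2* formed separate ranges in descending order.

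**Figure D2:**
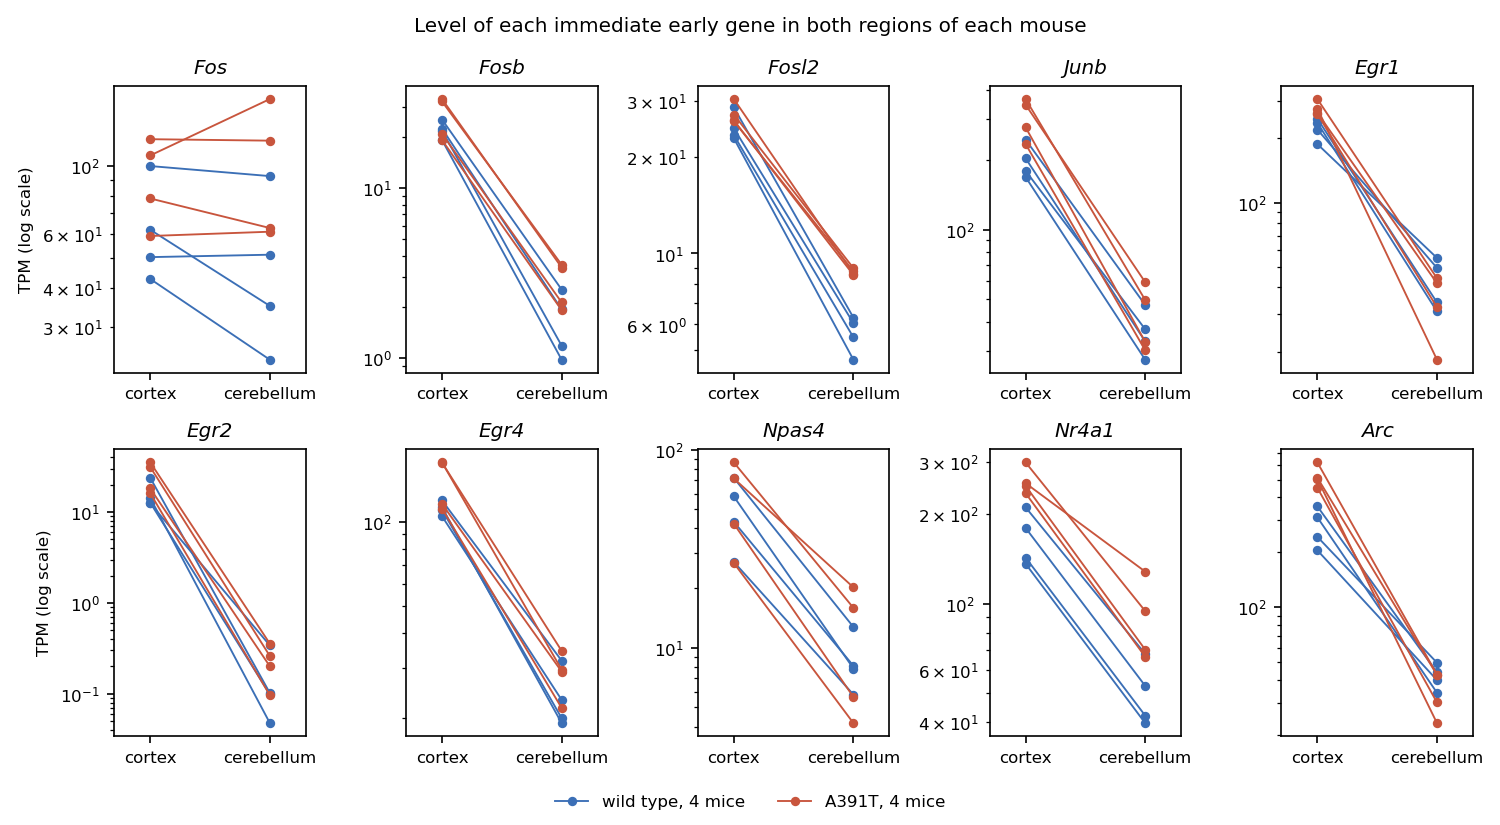
TPM on a log scale for each of the 10 genes, with 1 line per mouse joining its cortex to its cerebellum library (blue, 4 wild-type mice; red, 4 A391T mice). Every line falls from cortex to cerebellum in 9 genes, whereas those of *Fos* run both ways, with cerebellum from 0.547 to 1.52 times cortex, and the axes of the panels differ.

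Cerebellum was compared with cortex within each genotype to ask which members differ between the regions. In wild-type mice 9 of the 10 genes were lower in cerebellum, with log2 fold changes of -1.88 or beyond, and 1, *Fos*, did not pass. The criteria were an adjusted p under 0.05 and at least a 2-fold change, the limits the study used with edgeR, applied here to edgeR's quasi-likelihood test (Benjamini-Hochberg adjustment over all genes tested), and they called 14.2% of the 16040 tested genes lower in cerebellum. The same 9 genes were lower in A391T mice, where 14.9% of 16005 tested genes were called lower. The median log2 fold change of the members was -2.58 in wild-type and -2.69 in A391T mice, against 0.02 and 0.03 over all tested genes. Under the names of the RPKM table the same 9 genes were called, with log2 fold changes from -6.72 (*Egr2*) to -1.60 (*Nr4a1*) in wild-type and from -7.08 (*Egr2*) to -1.89 (*Nr4a1*) in A391T mice, and *Arc* had -3.42 and -3.63. In bulk tissue, fewer cells that express a gene and less of its RNA per cell cannot be told apart.

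*Fos*, which encodes a subunit of AP-1, had a cerebellar level from 0.547 to 1.52 times that of cortex in the same mouse. In wild-type cortex it had 42.9, 50.5, 62.0 and 99.7 TPM in mice 1 to 4, and in the cerebellum of the same mice 23.5, 51.4, 35.1 and 92.5 TPM. In A391T mice 1 to 4 the values were 78.3, 59.1, 122 and 108 TPM for cortex and 62.8, 61.1, 121 and 164 TPM for cerebellum. The ranges of the regions overlapped in both genotypes, the level was lower in cerebellum in 3 of 4 wild-type and 2 of 4 A391T mice, and wild-type mouse 4 had the highest value of its genotype in both regions. The log2 fold change was -0.49 (SE 0.37, adjusted p = 0.268, edgeR) in wild-type and 0.04 (SE 0.32, adjusted p = 0.927) in A391T mice. With the mouse as a block the wild-type value was -0.58 (SE 0.16, adjusted p = 0.015, edgeR), which passes the first criterion and not the fold. Without the block it was -0.07 under the names of the RPKM table, and as single libraries were left out it ran from -0.93 (without cerebellum of wild-type mouse 4, adjusted p = 0.028, edgeR) to -0.18 (without cortex of that mouse, adjusted p = 0.658).

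*Fosb*, which encodes a close relative of Fos and, by splicing, the stable form ΔFosB, ran from 19.2 to 33.4 TPM over the 8 cortex libraries and from 0.980 to 3.55 TPM over the 8 cerebellum libraries. The regions did not overlap, and in each mouse cortex was from 9.11 to 19.6 times cerebellum. The log2 fold change was -3.89 (SE 0.21, adjusted p = 2.7e-08, edgeR) in wild-type and -3.38 (SE 0.26, adjusted p = 1.6e-06) in A391T mice. *Fosl2*, another Fos relative, ran from 22.9 to 30.4 TPM in cortex. In cerebellum it ran from 4.65 to 6.30 TPM in wild-type and from 8.57 to 9.00 TPM in A391T mice, 2 ranges that did not overlap under these names and did under those of the RPKM table. Between regions it changed by -2.30 (SE 0.10, adjusted p = 4.2e-09, edgeR) and -1.75 (SE 0.08, adjusted p = 3.8e-08) on the log2 scale.

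*Junb*, the Jun partner among the members, had 168, 203, 179 and 244 TPM in the cortex of wild-type mice 1 to 4. Their cerebellum libraries had 27.5, 32.9, 37.1 and 47.3 TPM in that order. Cortex was far above cerebellum in each mouse, and wild-type mouse 4 was again the highest in both regions. Cortex of A391T mice 1 to 4 had 276, 234, 365 and 345 TPM and cerebellum 32.8, 30.2, 49.7 and 59.3 TPM. Mice 3 and 4 were the 2 highest of that genotype in both regions. The log2 fold change was -2.61 (SE 0.16, adjusted p = 7.2e-08, edgeR) in wild-type and -2.94 (SE 0.22, adjusted p = 1.7e-06) in A391T mice.

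As a share of the summed TPM of *Fos*, *Fosb*, *Fosl1* and *Fosl2*, *Fos* made up from 49.96% to 66.5% in cortex libraries and from 78.0% to 92.6% in cerebellum libraries, so that the regions did not overlap. As a share of the 10 members it made up from 4.11% to 7.31% in cortex and from 12.0% to 32.6% in cerebellum. *Arc* was the reverse, with 20.7% to 31.4% of the members' TPM in cortex and 8.47% to 20.4% in cerebellum. With the annotated length of *Egr1* these ranges became 18.1% to 28.3% and 8.05% to 18.6% and overlapped, as the share of wild-type mouse 1 was 18.1% in cortex and 18.6% in cerebellum. The summed TPM of the members was 1156 ± 165 in wild-type cortex and 261 ± 69.8 in wild-type cerebellum (SD, n = 4), and 1728 ± 268 and 356 ± 123 in the A391T regions.

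**Figure D3:**
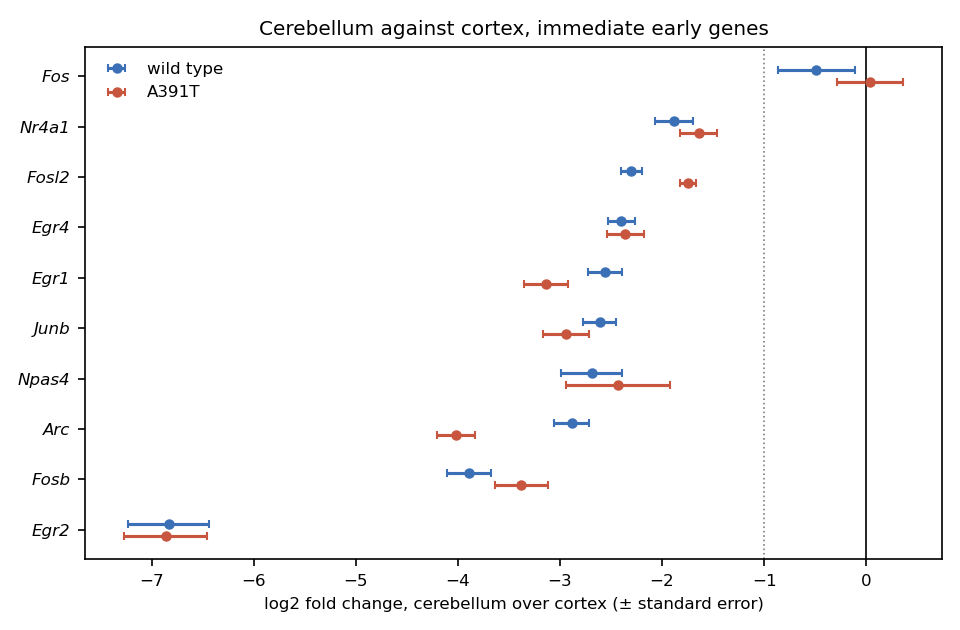
Log2 fold change of cerebellum over cortex with its standard error (edgeR, n = 4 libraries per region and genotype) for each gene, in wild-type (blue) and A391T mice (red). The solid line marks no change and the dotted line the 2-fold limit; 9 genes lie beyond it in both genotypes, with *Egr2* at -6.84 and -6.87, and *Fos* lies inside it.

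Of the zinc finger genes, *Egr2* showed the largest difference between regions of the 10 members. Wild-type cortex had 12.7, 14.2, 12.5 and 23.8 TPM in mice 1 to 4, and A391T cortex 18.2, 16.1, 35.2 and 31.3 TPM in mice 1 to 4. Each cerebellum library had from 1 to 7 counts, or from 0.0476 to 0.356 TPM, which is close to the limit of 3 counts that a count of 0 allows. Cortex was thus far above cerebellum in every mouse, and the order of the cerebellum libraries is not resolved at this depth. From summed counts scaled to library size, cortex was 108 times cerebellum in wild-type mice (1304 against 12 counts, exact 95% interval 61.5 to 209) and 110 times in A391T mice (2208 against 19 counts, 70.6 to 184), where the intervals cover counting error alone. Of the 12 wild-type cerebellum counts 7 were from mouse 3, without whose cerebellum library the ratio was 192. The fitted log2 fold change was -6.84 (SE 0.40, adjusted p = 4.2e-08, edgeR) and -6.87 (SE 0.41, adjusted p = 2.6e-07).

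*Egr1* had 237, 248, 220.2 and 188 TPM in wild-type cortex and 30.9, 34.0, 49.4 and 55.0 TPM in wild-type cerebellum, in mice 1 to 4. The mouse with the lowest cortical level, mouse 4, had the highest cerebellar level. In A391T mice 1 to 4 the values were 276, 260.4, 306 and 264 TPM in cortex and 18.3, 32.3, 44.2 and 41.9 TPM in cerebellum. Cerebellum of A391T mouse 1, the library that stood apart, was the lowest of all 16. The log2 fold change was -2.56 (SE 0.17, adjusted p = 1.2e-07, edgeR) in wild-type and -3.14 (SE 0.22, adjusted p = 7.9e-07) in A391T mice, and -2.94 (SE 0.10, adjusted p = 1.7e-10) in the latter without that library. *Egr4* ran from 104 to 162 TPM in cortex and from 19.1 to 34.6 TPM in cerebellum, and its log2 fold changes were -2.40 (SE 0.13, adjusted p = 3.3e-08, edgeR) and -2.36 (SE 0.18, adjusted p = 1.6e-06). Regions did not overlap for either gene.

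*Npas4*, the calcium-responsive factor, had 27.1, 43.2, 58.0 and 72.0 TPM in the cortex of wild-type mice 1 to 4, and 5.81, 8.10, 7.86 and 12.7 TPM in their cerebellum. In A391T mice 1 to 4 cortex had 42.3, 26.8, 86.2 and 71.5 TPM, and cerebellum 5.64, 4.17, 15.9 and 20.2 TPM. In both regions mouse 2 was the lowest and mice 3 and 4 the highest of the A391T group. The log2 fold change was -2.69 (SE 0.30, adjusted p = 1.1e-05, edgeR) in wild-type and -2.43 (SE 0.51, adjusted p = 0.0020) in A391T mice.

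*Nr4a1*, the nuclear receptor, had 143, 180.0, 136 and 211 TPM in wild-type cortex and 42.0, 52.9, 39.6 and 67.8 TPM in wild-type cerebellum, in mice 1 to 4. The rank of the 4 mice was the same in both regions. In A391T mice 1 to 4 it reached 249, 236, 299 and 255 TPM in cortex, and 70.0, 66.3, 94.5 and 128 TPM in the other region. The regions were separate in both genotypes, and apart from *Fos* this gene had the smallest regional difference, at -1.88 (SE 0.18, adjusted p = 3.8e-06, edgeR) and -1.64 (SE 0.18, adjusted p = 2.6e-05) on the log2 scale.

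*Arc*, the one member that encodes no transcription factor, had 205, 311, 243 and 357 TPM in the cortex of wild-type mice 1 to 4 and 40.0, 34.1, 49.8 and 44.1 TPM in their cerebellum. Of A391T mice 1 to 4 the cortex had 504, 451, 620.2 and 512 TPM, and the cerebellum 23.3, 30.2, 42.9 and 42.7 TPM. All A391T cortex values lay above all wild-type ones, while the cerebellum values overlapped. Under the names of the RPKM table the cortex values overlapped, and all A391T cerebellum values lay below the wild-type ones. Its log2 fold change was -2.89 (SE 0.17, adjusted p = 5.4e-08, edgeR) in wild-type and -4.02 (SE 0.19, adjusted p = 4.4e-08) in A391T mice.

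The difference between genotypes in the regional fold was tested as an interaction over all 16 libraries. None of the 10 members was called, against 0% of 16589 genes (0 genes) with edgeR and likewise 0 with DESeq2, while 2 members and 805 genes had an unadjusted p under 0.05. The 2 were *Arc*, whose regional log2 fold change was 1.12 lower in A391T than in wild-type mice (interaction -1.12, SE 0.25, adjusted p = 0.769), and *Fosl2*, with an interaction of 0.57 (SE 0.13, adjusted p = 0.769). Under the names of the RPKM table the *Arc* value was -0.20 (SE 0.37) and that of *Fosl2* 0.12 (SE 0.26).

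Cell type markers that differed between the regions alongside the members are given for reference. All 6 microglial markers were called lower in cerebellum in both genotypes, with summed TPM from 413 to 495 in cortex and from 126 to 169 in cerebellum libraries. Choroid plexus markers were called higher for 5 of 5 tested, with summed TPM from 6.75 to 46.2 in cortex and from 41.1 to 8083 in cerebellum libraries. Of 6 striatal markers 5 were called lower, with summed TPM from 265 to 907 in cortex and from 249.97 to 311 in cerebellum libraries. Blood (5 genes) and endothelial markers (6 genes) had no call in either direction, although 1 gene of each list passed the adjusted p alone in A391T mice and 1 endothelial gene in wild-type mice. No marker of these lists was at 0 in all libraries of a group, and their part in the regional differences was not tested.

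Other genes of the early response were taken from 5 lists, to be read against the 14.2% of all tested genes called lower and 10.5% called higher in wild-type cerebellum (14.9% and 9.8% in A391T mice). Of 4 other AP-1 genes tested, 1 was called lower in wild-type cerebellum, *Batf3* at -2.82 (SE 0.32, adjusted p = 1.1e-05, edgeR), and 0 higher. *Jun*, the classical partner of Fos, averaged 47.0 ± 5.74 TPM in wild-type cortex and 67.8 ± 3.85 TPM in wild-type cerebellum (SD, n = 4), a log2 fold change of 0.38 (SE 0.09, adjusted p = 0.0027, edgeR) that did not reach 2-fold. *Jund* had 126 ± 4.48 and 133 ± 1.00 TPM, and with TMM scaling a log2 fold change of -0.07 (SE 0.05, adjusted p = 0.256), so that the sign depends on the scaling. In A391T mice 1 of the 4 was again called lower, and cerebellum of mouse 1 had 246 TPM of *Jund* against 128 to 132 TPM in the other 3.

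Of 13 other early transcription factors, 5 were called lower in wild-type cerebellum and 0 higher. *Egr3*, the Egr family gene outside the members, fell by 7.57 on the log2 scale (SE 0.35, adjusted p = 7.0e-09, edgeR), from 217 ± 53.8 TPM in cortex to 1.25 ± 1.31 TPM in cerebellum (SD, n = 4). *Ier5* had -2.10 (SE 0.11, adjusted p = 2.1e-08), *Nr4a3* -1.49 (SE 0.27, adjusted p = 4.5e-04) and *Klf6* -1.24 (SE 0.10, adjusted p = 5.5e-07). *Nr4a2*, the other relative of *Nr4a1*, had -0.71 (SE 0.19, adjusted p = 0.0066) and did not reach 2-fold. In A391T mice 3 of the 13 were called lower and 0 higher, and *Nr4a3* and *Klf6* were not among them, at -0.46 (SE 0.15) and -0.81 (SE 0.11).

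The later effectors were mostly lower in cerebellum. Of 16 genes of this list, 12 were called lower and 0 higher in wild-type mice, and 10 lower and 0 higher in A391T mice. *Nptx2*, which encodes a secreted pentraxin of excitatory synapses, had -5.36 (SE 0.22, adjusted p = 2.5e-09, edgeR), from 151 ± 26.2 to 4.09 ± 1.56 TPM (SD, n = 4). *Tac1*, a neuropeptide precursor gene, had -4.26 (SE 0.29), *Ptgs2*, the inducible cyclooxygenase gene, -3.85 (SE 0.33) and *Vgf*, a neurotrophin-responsive gene, -3.52 (SE 0.20). *Homer1*, a postsynaptic scaffold gene whose short form is activity-induced and not separated by these counts, fell from 70.5 ± 7.65 to 11.4 ± 1.61 TPM (log2 fold change -2.78, SE 0.11, adjusted p = 2.6e-09, edgeR).

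Of 21 feedback and signalling genes 3 were called higher and 5 lower in wild-type cerebellum (3 and 6 in A391T mice). *Dusp5*, the gene of a nuclear MAP kinase phosphatase, rose by 3.24 on the log2 scale (SE 0.12, adjusted p = 8.5e-10, edgeR), whereas its relatives *Dusp14* and *Dusp6* had -2.38 (SE 0.10) and -1.94 (SE 0.13) and *Ctgf* -2.16 (SE 0.20). Of 18 upstream factors and kinases 2 were called higher and 5 lower in each genotype. *Camk2a*, the main calcium/calmodulin kinase gene of forebrain excitatory neurons, had -5.15 (SE 0.15), *Mef2c* -4.19 (SE 0.11), and *Mkl2*, a coactivator of serum response factor, -2.11 (SE 0.15).

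The covariation that chose the members is described without a test. The deviation of a library is its log2 CPM (counts scaled to library size with TMM factors, with a prior count of 2) minus the mean of its group of 4, and the mean over the 10 genes was taken for each library. In cortex the mean deviation was 0.33 in A391T mouse 3, 0.20 in A391T mouse 4 and 0.32 in wild-type mouse 4, and in cerebellum it was 0.29, 0.42 and 0.40 in the same mice. A391T mouse 2 and wild-type mouse 1 had -0.37 and -0.24 in cortex and -0.46 and -0.34 in cerebellum. A391T mouse 1 and wild-type mouse 2 were below 0 in both regions, at -0.17 and -0.02 in cortex and -0.25 and -0.16 in cerebellum, and wild-type mouse 3 alone changed sign, with -0.07 and 0.11. In cerebellum of wild-type mouse 3 the largest deviation of the 10 genes was that of *Egr2*, 0.94, which rests on 7 counts. By construction the deviations of a group sum to 0, and they rest on the names of the count files. Taken from the mean of the 8 libraries of a region instead, which does not depend on the names, A391T mice 3 and 4 had 0.55 and 0.42 in cortex and 0.50 and 0.64 in cerebellum, and wild-type mouse 4 had 0.11 and 0.18. Wild-type mice 1 to 3 were then below 0 in both regions, at -0.45, -0.24 and -0.28 in cortex and -0.55, -0.37 and -0.11 in cerebellum, as was A391T mouse 2 at -0.16 and -0.25, and A391T mouse 1 changed sign with 0.048 and -0.034. Over the 8 mice the means of the 2 regions had r = 0.94 and rho = 0.88, and r = 0.94 without the 2 mice farthest from the median in cortex, while deviations from the region mean gave r = 0.95 and rho = 0.90, and r = 0.88 without the 2 farthest. The points share depth and the scaling of their group, and the value was high by choice of the genes.

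**Figure D4:**
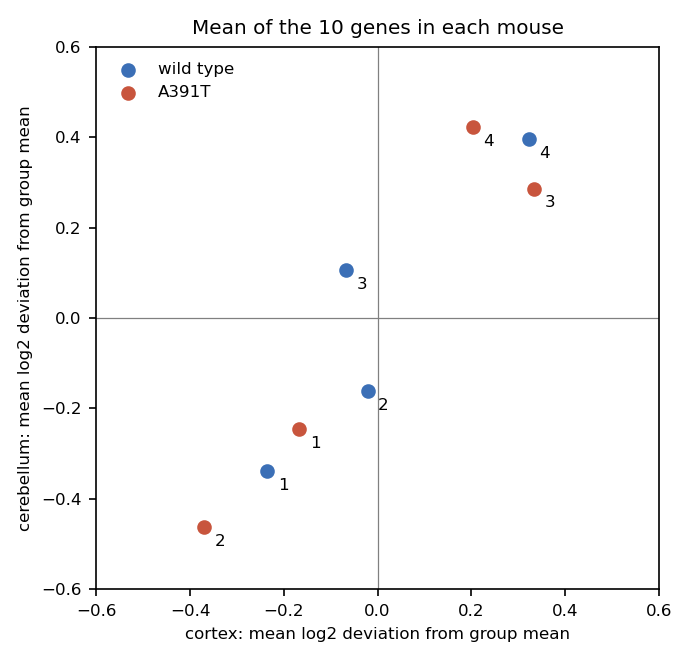
Mean deviation of the 10 genes from the group mean under the names of the count files (log2 units) in cortex (x) against cerebellum (y), 1 point per mouse with its number within the genotype, blue for wild type and red for A391T. A391T mice 3 and 4 and wild-type mouse 4 are high in both regions, A391T mouse 2 and wild-type mouse 1 are low in both, and 7 of 8 mice have the same sign in both.

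The members did not all behave alike. Correlated over 8 mice, log2 levels in cortex and cerebellum had r = 0.91 for *Nr4a1*, 0.91 for *Npas4*, 0.90 for *Fos*, 0.82 for *Junb*, 0.79 for *Fosb*, 0.66 for *Egr4* and 0.62 for *Fosl2*. The value was 0.44 for *Egr2*, whose cerebellum counts are few, -0.32 for *Arc* and -0.49 for *Egr1*. For *Egr1* and *Arc* the data thus go against the selection rule, as both regions of a mouse did not vary together. With deviations within a genotype in place of levels, the values were 0.91 for *Npas4* and *Junb*, 0.87 for *Fos*, 0.17 for *Arc* and -0.37 for *Egr1*. Without the 2 farthest mice, r was 0.82 for *Fos*, 0.86 for *Npas4* and 0.78 for *Nr4a1*, and 0.45 for *Fosb*, 0.53 for *Junb*, 0.57 for *Egr4* and 0.32 for *Fosl2*. It was then 0.07 for *Arc*, -0.68 for *Egr1* and -0.20 for *Egr2*, whose sign turned. The median over the 10 genes was 0.72, against -0.01 over 16589 genes, and 7 of the 10 had an r of at least 0.5, as did 10.3% of all genes.

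Within a region, the deviations of *Junb* followed the mean of the other 9 genes most closely, with r = 0.98 in cortex and 0.99 in cerebellum over 8 libraries. *Fosb* had 0.94 and 0.93, *Npas4* 0.91 and 0.91, and *Fos* 0.93 and 0.80. *Egr1* had -0.17 in cortex and 0.75 in cerebellum, *Egr2* 0.95 and 0.42, and *Fosl2* 0.45 and 0.22. The spread between mice, which also bears on the choice of the members, differed among them. Their median SD within groups on the log2 scale was 0.28 in cortex and 0.41 in cerebellum, against 0.15 and 0.18 over all genes, and it was largest for *Npas4* (0.69 and 0.82) and smallest for *Fosl2* (0.12 and 0.13) under the names of the count files. Around the mean of the 8 libraries of a region, whatever their names, the SD in cerebellum was 0.92 for *Fos*, 0.77 for *Npas4*, 0.39 for *Fosl2* and 0.30 for *Arc*, and in cortex it was 0.64 for *Npas4* and 0.13 for *Fosl2*.

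**Figure D5:**
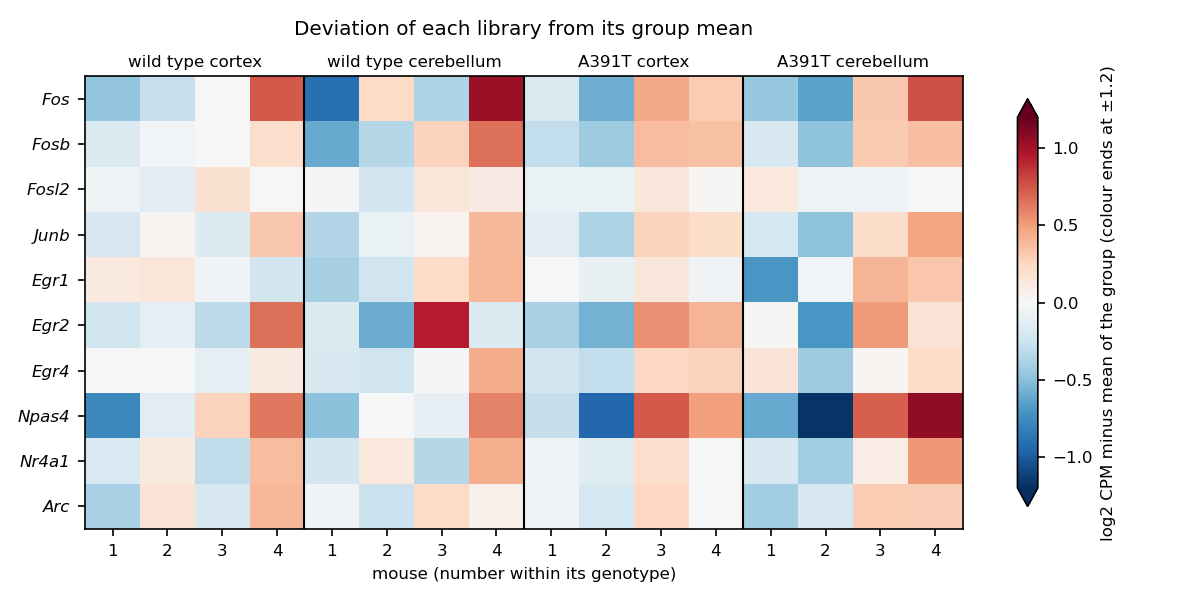
Log2 CPM minus the mean of the group for each gene (rows) in each of the 16 libraries (columns by group and mouse), red above and blue below the group mean. The columns of wild-type mouse 4 and A391T mice 3 and 4 are mostly red and those of A391T mouse 2 blue in both regions, and *Fosl2* is pale throughout.

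Some marker lists moved with the members' mean deviation. Over the 8 libraries of a region, blood markers had r = 0.68 in cortex and 0.68 in cerebellum, endothelial markers 0.66 and 0.67, and cortical markers -0.69 and -0.80. Microglial markers had 0.78 in cortex and 0.10 in cerebellum, and the number of counts on genes -0.17 and -0.52. Summed blood markers ran from 286 to 440.2 TPM in wild-type cortex, 289 to 353 in A391T cortex, 367 to 439 in wild-type cerebellum and 360.0 to 593 TPM in A391T cerebellum. For endothelium the ranges were 302 to 460.8, 285 to 334, 279 to 374 and 293 to 320.2 TPM in that order. No gene of these lists was at 0 in all libraries of a group, although the cortical marker *Fezf2* was at 0 in single cerebellum libraries, and their part in the covariation was not tested.

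The 10 genes outside the members with deviations most like the members' mean were ranked over the 16 libraries among 16579 genes. The first was *Dusp1*, the gene of a phosphatase that inactivates MAP kinases and itself an early response gene, with r = 0.89. It ran from 35.0 to 60.2 TPM in wild-type cortex and from 47.7 to 104 TPM in wild-type cerebellum, and it did not pass the regional test (log2 fold change 0.49, SE 0.23, adjusted p = 0.075, edgeR). *Lpar6* (0.86), a lysophosphatidic acid receptor gene, *Slc25a47* (0.84), *Alas2* (0.82), the erythroid gene of heme synthesis and one of the blood markers, *Zcchc24* (0.81) and *Gm17275* (0.81) followed. The last were *Sass6* (0.80), a centriole assembly gene, *Tob1* (0.79) and *Il13ra1* (0.78), an interleukin receptor gene. Of the 72 genes of the 5 early response lists, 1 was among these 10 and 2 among the first 50, and their list medians lay between -0.07 and 0.26. Taken as the mean of a list against the members' mean over 8 libraries, feedback and signalling genes had r = 0.93 in cortex and -0.25 in cerebellum, other early transcription factors 0.74 and 0.10, other AP-1 genes 0.60 and 0.05, later effectors 0.24 and 0.28, and upstream genes -0.51 and 0.53.

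Genotypes were compared within each region, and since variation between these mice chose the members, the values are a description. In cortex 0 of the 10 were called with edgeR, and 0 with DESeq2, against 0.00632% of 15815 genes (1 gene), while 6 members and 748 genes had an unadjusted p under 0.05. All 10 had a positive log2 fold change of A391T over wild type, from 0.12 for *Fosl2* to 0.88 (SE 0.16, adjusted p = 0.389) for *Arc*, whose mean was 522 against 279 TPM. Of 8 stress and glucocorticoid response genes 7 had a negative log2 fold change in A391T cortex (median -0.30), with summed TPM from 200.4 to 247 in A391T and 216 to 273 in wild-type libraries and none at 0 in a whole group. Blood (5 genes), endothelial (6 genes) and striatal markers (6 genes) were also all negative, with medians of -0.16, -0.15 and -0.083. Of 6 microglial markers 4 were positive. The gene called was one of the stress and glucocorticoid response genes, *Plin4*, at -1.76 (SE 0.22, adjusted p = 0.0496, edgeR). The values of these lists use the names of the count files, and their part in the values of the members was not tested. In cortex 0 genes were called under the names of the RPKM table, with RLE factors or with library totals. The 4 A391T libraries lay above the 4 wild-type libraries for 3 members, *Arc*, *Egr1* and *Nr4a1*, and for 1.81% of genes. Under the names of the RPKM table they lay above for 0 members and below for 2, *Fosb* and *Npas4*, against 269 of 15808 genes below. Without the cortex library of wild-type mouse 4, *Arc* was called, with 1.04 (adjusted p = 0.019, edgeR). As single libraries were left out, the adjusted p of *Nr4a1* was as low as 0.019 (edgeR), without a 2-fold change. Over the other alternatives the adjusted p was as low as 1.0e-04 for *Arc* and 0.019 for *Nr4a1* (edgeR or DESeq2). Neither gene reached 2-fold in those alternatives. Under the RPKM names 9 of the 10 turned negative: *Arc* had -0.25 (SE 0.29), *Nr4a1* -0.17 (SE 0.22) and *Npas4* -1.05 (SE 0.17, adjusted p = 0.322), and *Egr1* had 0.06 (SE 0.12).

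In cerebellum 9 members passed the filter on low counts, without *Egr2*, and 0 of the 9 were called with edgeR and 0 with DESeq2, against 0% of 15668 genes with edgeR and 10 genes with DESeq2. An unadjusted p under 0.05 was found for 4 members and 1340 genes. Over the alternatives run, the adjusted p was as low as 9.3e-06 for *Fosl2* and 0.049 for *Nr4a1* (edgeR or DESeq2). Neither gene reached 2-fold in those alternatives. Log2 fold changes were 1.06 (SE 0.43, adjusted p = 0.532) for *Fos*, 0.88 (SE 0.22) for *Nr4a1*, 0.78 (SE 0.31) for *Fosb* and 0.70 (SE 0.10, adjusted p = 0.309) for *Fosl2*, and -0.23 (SE 0.17) for *Arc* and -0.27 (SE 0.25) for *Egr1*, which became -0.11 (SE 0.14) and -0.084 (SE 0.18) without A391T mouse 1, the library that stood apart. Under the names of the count files all 6 choroid plexus markers had a negative log2 fold change in cerebellum (median -0.71, none called). Their summed TPM ran from 41.9 to 5817 in A391T and from 41.1 to 8083 in wild-type libraries. All 5 blood markers were positive (median 0.16), as were 2 of 8 stress and glucocorticoid response genes (median -0.32). The part of these lists in the values of the members was not tested. The A391T libraries all lay above the wild-type libraries for 2 members, *Fosl2* and *Nr4a1*, and for 4.1% of genes, whereas under the names of the RPKM table they lay above for 0 members and below for 2, *Arc* and *Egr1*, against 514 of 15668 genes below. Under the names of the RPKM table all 9 were negative, with -0.98 (SE 0.44) for *Fos*, -0.45 (SE 0.32) for *Nr4a1* and -1.19 (SE 0.29) for *Npas4*, so the direction of a genotype difference in these genes rests on which names hold.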

How the data were processed

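RNA from cortex and cerebellum was sequenced by the authors from polyA-selected, directional libraries, aligned to mm9 with STAR and counted with HTSeq. Deposited counts are raw whole numbers per gene, made without regard to strand. Entries for reads on no gene (10.2% to 13.2% of a file), ambiguous between genes (2.20% to 2.75%) or not uniquely aligned (8.41% to 12.1%) stayed out of totals and tests. The authors also deposited RPKM values in 1 table with gene lengths. Of its columns, 8 of 16 hold the counts of a library that the count files name differently, and RPKM values entered no test.

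TPM was computed here from counts and those lengths, with the same total in each library. Tests used edgeR 4.0.16 in R 4.3.3 (filterByExpr, TMM, glmQLFit and glmQLFTest, limma 3.58.1), adjusted by Benjamini-Hochberg over all genes tested, and the SE is the fold change divided by the root of F. The scripts were tested on simulated counts. Members, lists and tests were chosen with earlier results of these data known. By rule the text names every member, up to 4 called genes per list with the largest wild-type regional change, *Egr3*, *Nr4a2*, *Nr4a3*, *Jun*, *Jund* and *Homer1*, and the 10 genes most like the members' mean. Of the genes this rule names, 2 are not reported here. Other genes named as library facts, *Gm17507* and *Plin4* among them, were chosen after their values were seen. Alternatives were DESeq2 1.42.0, RLE factors, library totals, 2 other filters, a single model, no fold criterion, a test against 2-fold, the mouse as replicate block, the names of the RPKM table, mice named alike in both, and each library left out. The names of the RPKM table together with the block, and for levels the annotated gene lengths, the names of the RPKM table and, for the *Egr2* ratio, each cerebellum library left out, were added after the data were seen.

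The mouse number in the titles pairs cortex and cerebellum, taken per the study from 1 animal. Deviations in both regions of a mouse correlated across genes at -0.10 to 0.12 (median -0.05), against -0.17 to 0.15 between mice. Coordinates of genes are from the NCBIM37 annotation and start regions from RefSeq. Intervals cover counting error only, and precision is limited by 4 mice per group.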

Additional observations from a re-analysis of the deposited data

Results flagged for a closer look

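Of 40 sets of 4 libraries (10 genes in 4 groups), 1 held a library far from the other 3, where chance gives about 1 in 20 for independent sets. The genes were chosen on this variation between mice and vary together, so that rate does not apply to them and the value is a description. *Egr2* in wild-type cortex had 23.8 TPM in mouse 4 against 12.7, 14.2 and 12.5 TPM in mice 1 to 3, and the gap to the nearest library was 0.844 of the range, above Dixon's limit for 4 samples. The same mouse had the highest level of its group in cortex for *Fos*, *Fosb*, *Junb*, *Egr4*, *Npas4*, *Nr4a1* and *Arc*, and the lowest for *Egr1*. Its cortex library had the fewest counts of all and, among cortex libraries, the most genes more than 2-fold from its group.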

How the results depend on the processing

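The 9 regional calls were kept in both genotypes under every alternative run, including the replicate block (*Arc* -2.86 in wild-type and -4.04 in A391T mice), the names of the RPKM table and each library left out, and the block changed no other call. Members called between genotypes in cortex ran from 0 to 1 as single libraries were left out, the 1 being *Arc* without wild-type mouse 4. Some values that were not called changed sign; those between genotypes within a region turned under the names of the RPKM table for 9 of 10 genes in cortex and 7 of 9 in cerebellum. *Fos* between regions in A391T mice had -0.020 with the replicate block, -0.30 with the names of the RPKM table, -0.37 with both, -0.21 with mice named alike in both sources, and -0.27 to 0.23 as libraries were left out. Interactions under the names of the RPKM table, without and with the replicate block, were -0.22 and -0.13 for *Fos*, -0.30 and -0.32 for *Fosb*, -0.043 and -0.083 for *Egr4*, -0.15 and -0.095 for *Npas4*, and -0.28 and -0.22 for *Nr4a1*. With mice named alike they were -0.00828 for *Npas4* and -0.000474 for *Nr4a1*, and *Egr2* had 0.013 with DESeq2. Leaving out libraries gave -0.30 to 0.78 for *Egr2*, -0.038 to 0.23 for *Egr4* and -0.13 to 0.55 for *Npas4*. Without a fold criterion 10875 genes rather than 3955 were called between regions in wild-type and 10056 rather than 3949 in A391T mice. Genes called between genotypes ran from 0 to 2 in cortex (1 as reported) and from 0 to 10 in cerebellum (0 as reported, 10 with DESeq2). Why these values moved was not tested. Depth limits *Egr2* in cerebellum, at 1 to 7 counts a library.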
